A study of Mus musculus with 6 samples.

Results

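Actins are the proteins of the thin filament in muscle and of the filaments that shape other cells, and the mouse has 6 genes for them. All 6, Acta1, Actc1, Acta2, Actg2, Actb and Actg1, were found by symbol among the 27179 gene rows of a count table from cultured satellite cells, the muscle's own stem cells. In one group the cells had received recombinant human MG53 (rhMG53), a membrane repair protein of striated muscle, for 72 h, and in the control group they had received the vehicle protein bovine serum albumin (BSA) for the same time. Each group held 3 libraries. All libraries came from wild-type C57BL/6 hindlimb cells labelled as ageing, with neither a stated age nor a protein dose, grown in medium with foetal bovine serum and basic fibroblast growth factor and labelled day 3. The labels do not say which animal or culture a library came from, so the p-values only weigh the spread from library to library, part of which may be technical.

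In adult skeletal muscle the sarcomere is built with the Acta1 product, while the Actc1 product, the actin of the heart, is also made by young and regenerating skeletal fibres. Acta2 encodes the alpha actin of vascular smooth muscle, which myoblasts and activated fibroblasts also make, and Actg2 encodes the gamma actin of enteric smooth muscle. Actb and Actg1 encode the cytoplasmic actins that nearly all cells use. Muscle actin genes are classic targets of serum response factor (SRF), which binds the CArG box and works with MRTF coactivators that sense free actin monomers.

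The proteins are closely alike and the coding sequences differ mostly at silent positions, and the sequences below show how the coding starts differ. These starts need not stand for the whole coding sequence, where Acta2 differed from Acta1 at 166 of 1134 aligned bases. Each line holds the first 60 coding bases of a gene, taken from GENCODE M21 transcripts on GRCm38, with capitals at bases that differ from the aligned base of Acta1. The coding sequence has 1134 bases in Acta1, Actc1 and Acta2, 1131 in Actg2, and 1128 in Actb and Actg1. Alignment gaps are neither printed nor counted, so the Actg2, Actb and Actg1 lines do not match the Acta1 line column by column.
Acta1: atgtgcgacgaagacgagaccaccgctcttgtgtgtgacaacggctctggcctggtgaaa
Actc1: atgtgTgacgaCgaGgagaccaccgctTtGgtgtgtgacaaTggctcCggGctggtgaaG
Acta2: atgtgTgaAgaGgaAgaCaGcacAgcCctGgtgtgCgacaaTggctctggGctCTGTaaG
Actg2: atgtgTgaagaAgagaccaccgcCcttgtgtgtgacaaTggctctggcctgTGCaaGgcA
Actb: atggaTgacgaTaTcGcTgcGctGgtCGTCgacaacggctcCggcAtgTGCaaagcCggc
Actg1: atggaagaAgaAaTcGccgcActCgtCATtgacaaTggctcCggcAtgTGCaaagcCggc
Actc1 and Actg2 had 9 such bases each in this stretch, Actg1 16, and Acta2 and Actb 17 each. The stretches lie at chr8:123893638-123893697 (Acta1), chr2:114051972-114052031 (Actc1), chr19:34252494-34252553 (Acta2), chr6:83527382-83527441 (Actg2), chr5:142905627-142905686 (Actb) and chr11:120348032-120348091 (Actg1), all on the minus strand.

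Over the whole coding sequence Acta1 and Actc1 were identical at 977 of 1134 aligned bases (86.2%), and Actb and Actg1 at 1000 of 1128 (88.7%), the closest pair of the 15. The least alike pairs, Actc1 with Actg1 and Acta2 with Actg1, were identical at 81.9% of bases. The longest unbroken run that Acta1 shared with Actc1 was 29 bases, and the longest between any members was 77 bases, shared by Acta1 and Actb. A stretch of 100 coding bases therefore never occurred in more than 1 member.

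Windows shared with any other annotated gene, other members included, were unevenly spread over the family. Of the 100-base windows of the Actg1 transcript 51.1% also occurred, on the same strand, in another annotated gene, and all 6 of these genes are pseudogenes. The share was 1.10% for Actb and 0 for Acta1, Actc1, Acta2 and Actg2. With 50-base windows it was 56.7% for Actg1, 14.2% for Actb, 2.22% for Acta1, 0.352% for Acta2 and 0 for Actc1 and Actg2. The sources used here do not say how reads with several matches were counted or how long reads were, so the levels of Actg1, and to a lesser degree of Actb, are less certain than those of the muscle actins. How far that affected their counts was not tested.

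**Figure D1:**
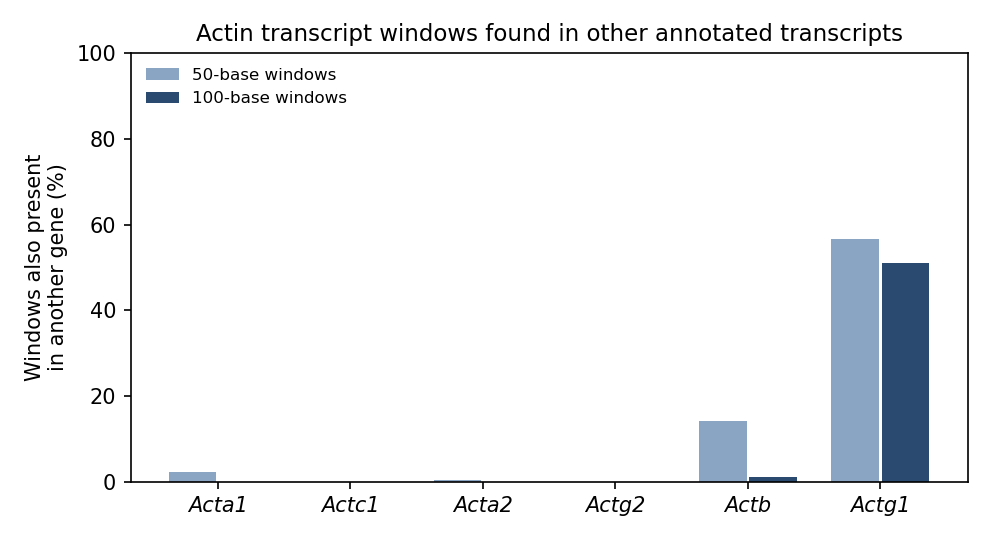
Bars give the percent of all 50-base (light) and 100-base (dark) windows of each actin transcript that also occur in a transcript of another gene of GENCODE M21. Actg1 stands at 56.7% and 51.1%, and the muscle actins are at or near 0.

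Library totals ran from 17374151 to 22738745 gene counts, and no library stood apart by depth. Replicate 2 of rhMG53 was low in the very long sarcomere transcripts, and replicate 3 was the lowest BSA library in them. Neb was at 2588, 1055 and 2615 CPM and Ttn at 3344, 1614 and 3628 CPM in the 3 rhMG53 libraries. In the 3 BSA libraries Neb was at 3044, 2276 and 1663 CPM and Ttn at 3909, 3041 and 2446 CPM. Without rhMG53 replicate 2, 0 of 5 tested actins passed in edgeR, as with it. The log2 fold changes were then -0.0092 for Acta1, 0.0051 for Actc1, -0.16 for Acta2, -0.098 for Actb and -0.051 for Actg1. Differentiated muscle markers were abundant in both groups, with Myh3, embryonic myosin heavy chain, at 21426 CPM (counts-per-million) and Myh1 at 10815 CPM over all libraries, so sarcomeric transcripts were plentiful in these cultures. The 15 markers of differentiated muscle summed to 51232 to 60044 CPM with rhMG53 and 56758 to 61708 CPM with BSA. The 9 markers of satellite cells and myoblasts, led by Itga7 and Myod1, summed to 2671 to 2733 CPM with rhMG53 and to 2785 to 2843 CPM with BSA, ranges that did not overlap. Most of each sum was Itga7, at 1714, 1601 and 1716 CPM with rhMG53 and 1799, 1808 and 1736 CPM with BSA. Itga7 alone among the 9 separated the groups, as did 10.8% of all tested genes. Pax7 averaged 9.23 CPM over all libraries, and Calcr was under 1 CPM. The part of these markers in the actin values was not tested. In the whole comparison 3 of 13769 tested genes passed edgeR's quasi-likelihood test at an adjusted p under 0.05, a share of 0.0218%, and none of the 3 is an actin. Counts of bulk RNA cannot tell fewer cells of a type from less RNA per cell.

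The skeletal actin gene led the family in every library. Acta1 (gene ID 11459, chromosome 8, 123891758 to 123894775, 7 exons) was at 11669, 12392 and 13202 CPM in the 3 rhMG53 libraries and at 11302, 13060 and 13182 CPM in the 3 BSA libraries, listed here and throughout by replicate number. Replicate 1 was the lowest library of each group and the groups overlapped. Per kilobase of transcript Acta1 averaged 8590 ± 530.2 CPM with rhMG53 and 8655 ± 727.6 CPM with BSA (SD, n = 3 each). On that scale it ranked 3 of 12953 tested genes with a known length, behind the mitochondrially encoded mt-Co1 and mt-Co2 and ahead of every such nuclear gene. The log2 fold change was -0.01 (SE 0.087), and its 95% interval spanned 0.87-fold to 1.13-fold (edgeR adjusted p = 0.997).

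Actc1, the cardiac alpha actin gene, followed in level. Actc1 (gene ID 11464, chromosome 2, 114047282 to 114052875, 7 exons) was at 6066, 6136 and 6855 CPM in the 3 rhMG53 libraries and at 5924, 6691 and 6696 CPM in the 3 BSA libraries. The groups overlapped, and replicate 1 was again the lowest of each. It ranked 15 of 12953 per kilobase, at 4312 ± 296.5 CPM per kilobase with rhMG53 and 4370 ± 301.4 CPM per kilobase with BSA (SD, n = 3 each). The log2 fold change was -0.02 (SE 0.082), with a 95% interval of 0.87-fold to 1.12-fold (edgeR adjusted p = 0.995).

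The ratio of the skeletal to the cardiac isoform, which climbs as skeletal muscle matures, differed by less than the spread between libraries. Per length Acta1 stood at 1.96, 2.06 and 1.96 times Actc1 in rhMG53 replicates 1 to 3 and at 1.94, 1.99 and 2.01 times in BSA replicates 1 to 3. The mean ratio was 1.99 ± 0.056 with rhMG53 and 1.98 ± 0.032 with BSA (SD, n = 3 each). An exact 2-sided permutation test of the log2 ratio gave p = 0.8, where 3 against 3 cannot give a p below 0.1.

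Acta1 and Actc1 also went up and down together from library to library. Centred on its own mean, the log2 CPM of Actc1 differed from that of Acta1 by a root mean square of 0.027 over the 6 libraries, while Acta1 itself deviated from its mean by 0.088. Of 3620 other genes with at least 50 CPM, Popdc3, which encodes a muscle membrane protein, was nearer to Acta1 (0.023), Actc1 came next, and Nmt1, an N-myristoyltransferase gene, was the third (0.029). The genes nearest to Actc1 were the co-chaperone gene Dnaja4 (0.024), the tetraspanin gene Tspan13 (0.025) and 2900026A02Rik (0.025). These distances describe 6 libraries that share depth and composition effects, and no test was made of them.

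The upstream sequences of Acta1 and Actc1 are shown side by side, with the CArG box in capitals. Whether this box bears on the levels of either gene was not tested. Each is the 250 bases before the annotated start in the RefSeq promoter table of GRCm38.p6, read 5′ to 3′ on the minus strand, from chr8:123894776-123895025 for Acta1 and chr2:114052876-114053125 for Actc1.
Acta1: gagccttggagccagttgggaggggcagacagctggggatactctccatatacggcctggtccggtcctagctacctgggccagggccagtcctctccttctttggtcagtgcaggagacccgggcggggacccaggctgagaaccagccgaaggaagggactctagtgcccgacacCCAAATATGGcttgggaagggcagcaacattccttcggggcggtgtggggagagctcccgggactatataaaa
Actc1: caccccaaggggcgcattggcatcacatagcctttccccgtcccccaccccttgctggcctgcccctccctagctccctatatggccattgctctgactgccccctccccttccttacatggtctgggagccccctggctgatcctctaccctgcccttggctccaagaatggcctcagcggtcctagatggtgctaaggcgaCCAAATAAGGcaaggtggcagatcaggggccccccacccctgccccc
Actg1, a cytoplasmic member, held a CArG box as well, here with 10 bases on either side from chr11:120348566-120348595.
Actg1: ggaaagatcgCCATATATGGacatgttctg
The table held promoters of 4 members, and those of Actb and Actg2 were not used here. A CArG box, in its strict form and on either strand, occurred in 3 of these 4 300-base windows (250 bases before the start and 50 after) and in 1.63% of all 32851 windows. It began 73 bases before the start in Acta1, 47 before in Actc1 and 90 before in Actg1. Looser forms of the box were neither searched nor marked, so these windows, that of Acta2 included, may hold some. The motif CATTCC, which TEAD factors bind, occurred on either strand in Acta1 and Acta2 and in 14.7% of all windows, and TATAAA occurred on either strand in Acta1 and Actc1 and in 13.6% of all windows. In Acta1 TATAAA began 7 bases before the annotated start. In Actc1 it began 33 bases after the annotated start, outside the bases printed above. The Acta2 window was set by the table at a start that lies inside the gene span given for Acta2. The annotated starts of the other 3 lie at the end of their gene spans. No searched motif overlapped a CArG box in these windows.

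Acta2 had the log2 fold change farthest from 0 among the 5 tested members, and it did not pass the test. Acta2 (gene ID 11475, chromosome 19, 34240336 to 34255585, 9 exons) was at 1115, 1238 and 1233 CPM in the 3 rhMG53 libraries and at 1213, 1327 and 1403 CPM in the 3 BSA libraries. The highest rhMG53 libraries, replicates 2 and 3, overlapped the lowest BSA library, replicate 1. The means were 1196 ± 69.5 CPM with rhMG53 and 1314 ± 95.6 CPM with BSA (SD, n = 3 each). The log2 fold change was -0.14 (SE 0.075), with a 95% interval of 0.81-fold to 1.02-fold (unadjusted p = 0.0976, adjusted p = 0.965 in edgeR).

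As a share of all actin transcripts Acta2 separated the groups. Counted per length, it made up 4.16%, 4.40% and 4.09% of actin transcripts in rhMG53 replicates 1 to 3 and 4.62%, 4.45% and 4.64% in BSA replicates 1 to 3. Every rhMG53 library lay below every BSA library, and replicate 2 of each group lay nearest to the other group. For scale, 10.8% of all tested genes had CPM values that did not overlap between the groups. The means were 4.22 ± 0.164% with rhMG53 and 4.57 ± 0.104% with BSA (SD, n = 3 each), a difference of -0.35 percentage points. An exact 2-sided permutation test gave p = 0.1, the lowest possible here, so this design cannot reach 0.05 for a single share, and 7 such tests were made, 6 shares and the ratio above.

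The 12 markers of smooth muscle cells and pericytes summed to 465.2 to 501.8 CPM with rhMG53 and to 480.7 to 512.3 CPM with BSA, with 7 of 12 at 1 CPM or more. The most abundant were Smtn at 182.2 CPM and Abcc9 at 127.3 CPM over all libraries. The defining smooth muscle genes Myh11, at 0.441 CPM, and Cnn1, at 0.166 CPM, were near 0, as was the coactivator gene Myocd at 0.185 CPM, and Kcnj8 was at 0 in every library. Fibroblast markers, led by the collagen genes Col1a1 and Col3a1, summed to 1497 to 1646 CPM with rhMG53 and to 1350 to 1642 CPM with BSA. Of these 10 markers 7 were at 1 CPM or more, with Dcn at 17.8 CPM over all libraries. Lum and Pi16 were under 1 CPM, and Tcf21 was at 0 in every library. The part of smooth muscle cells, pericytes or fibroblasts in the Acta2 values was not tested. The genes nearest to Acta2 in pattern were the aminopeptidase gene Aopep (0.021), Mief2 (0.027) and Porcn (0.036), against a deviation of 0.104 for Acta2 itself.

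Actg2 (gene ID 11468, chromosome 6, 83512909 to 83536251, 9 exons) was barely detected. Its counts were 4, 6 and 2 in rhMG53 replicates 1 to 3 and 4, 6 and 5 in BSA replicates 1 to 3, and it was the single member below the filter on low counts. The summed counts were 12 with rhMG53, a level of 0.217 CPM (exact Poisson 95% interval 0.112 to 0.378), and 15 with BSA, a level of 0.256 CPM (0.143 to 0.423), intervals that cover counting error only. A difference between these counts was not detectable at this depth.

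The cytoplasmic actins were far below the sarcomeric ones. Actb (gene ID 11461, chromosome 5, 142903115 to 142907976, 6 exons) was at 531.4, 605.5 and 542.4 CPM in the 3 rhMG53 libraries and at 583.2, 516.6 and 623.6 CPM in the 3 BSA libraries. The groups overlapped fully, and the log2 fold change was -0.04 (SE 0.081), with a 95% interval of 0.86-fold to 1.10-fold (edgeR adjusted p = 0.992). Actg1 (gene ID 11465, chromosome 11, 120345687 to 120348495, 6 exons) was at 323.1, 328.2 and 297.1 CPM in the 3 rhMG53 libraries and at 333.1, 302.2 and 328.3 CPM in the 3 BSA libraries. Its groups overlapped too, and its log2 fold change was -0.02 (SE 0.065), with a 95% interval of 0.89-fold to 1.09-fold (edgeR adjusted p = 0.995). Nearest in pattern to Actb were the pseudokinase receptor gene Ptk7 (0.028), mt-Atp8 (0.033) and Col18a1 (0.033), and nearest to Actg1 were the small GTPase gene Arf3 (0.016), the splicing factor gene Rbfox2 (0.016) and Tmem41b (0.022).

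Per kilobase the order of the members was the same in each of the 6 libraries. Acta1 was above Actc1, which was 6.6 to 7.68 times Acta2, which was 1.93 to 2.42 times Actb, which was 1.67 to 1.93 times Actg1, and Actg2 was last. No neighbours in this order overlapped over the 6 libraries. The last step among the cytoplasmic genes depended on how length was counted. In a choice made after the data were seen, only the 50-base windows that no other gene holds were counted as length. Actg1 then took 2.59 ± 0.267% of actin transcripts with rhMG53 and 2.60 ± 0.297% with BSA. Actb took 2.35 ± 0.207% and 2.38 ± 0.291%, so Actg1 came first. All counts were kept, so these shares hold only if reads from shared windows were left uncounted, which is not known. The order of the muscle actins did not depend on how length was counted.

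**Figure D2:**
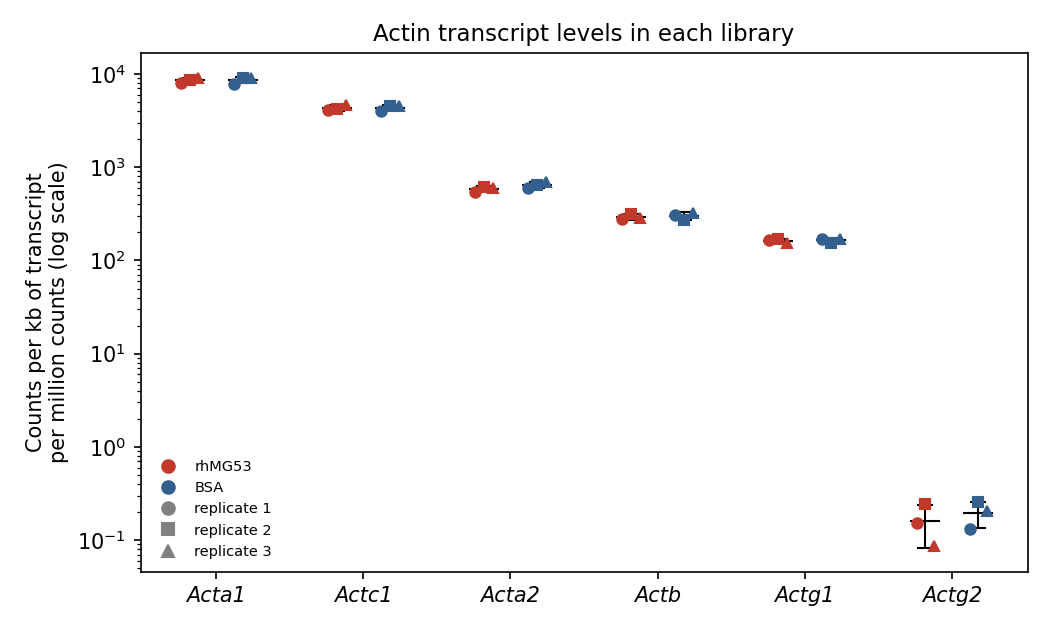
Points are the CPM per kilobase of transcript of each actin gene (log axis) in each library, rhMG53 left of BSA, with bars for the mean and SD of 3 libraries. The groups overlap for each gene, and Actg2 rests on 2 to 6 counts per library.

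Sarcomeric isoforms made up nearly all actin transcripts. Acta1 and Actc1 together took 92.5%, 92.1% and 93.0% of the per-length total in rhMG53 replicates 1 to 3 and 91.7%, 92.7% and 92.0% in BSA replicates 1 to 3. Acta1 alone took 61.6 ± 0.370% with rhMG53 and 61.2 ± 0.579% with BSA, and Actc1 took 30.9 ± 0.693% with rhMG53 and 30.9 ± 0.275% with BSA (SD, n = 3 each). Actb took 2.10 ± 0.188% with rhMG53 and 2.13 ± 0.264% with BSA, and Actg1 took 1.17 ± 0.122% with rhMG53 and 1.17 ± 0.136% with BSA. Apart from Acta2, the shares of the members overlapped between the groups, with exact permutation p at 0.5 for Acta1 and 0.7 to 1 for the others.

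**Figure D3:**
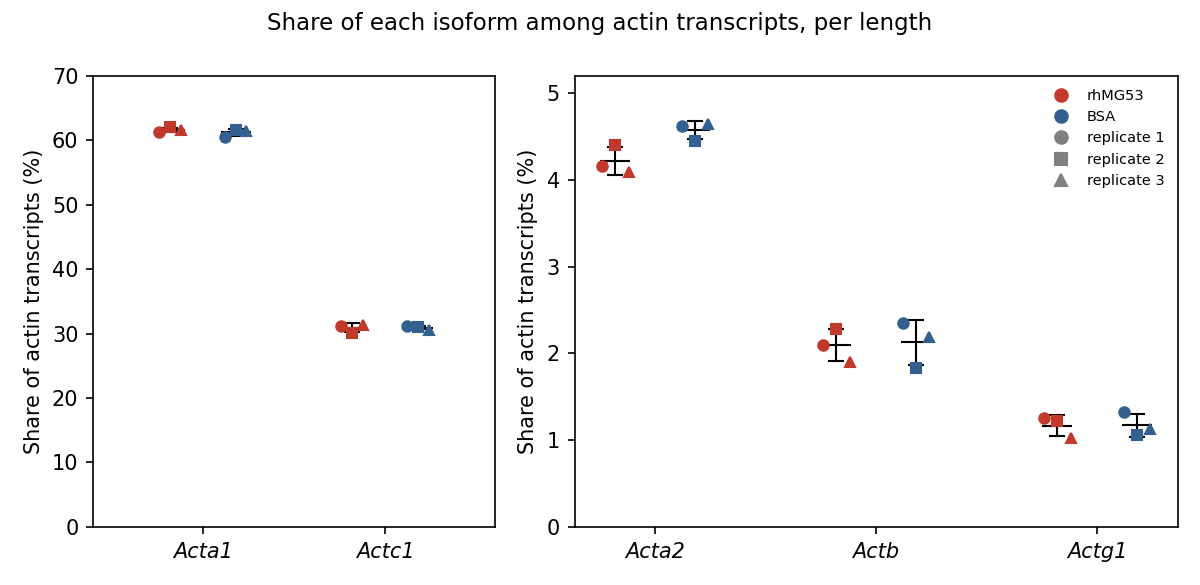
Points are the share of each isoform among actin transcripts, in percent and per length, for each library, rhMG53 left of BSA, with bars for the mean and SD of 3 libraries. Acta2 is at 4.09% to 4.40% with rhMG53 and at 4.45% to 4.64% with BSA, while the other isoforms overlap.

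The share of the family in all counts did not separate the groups. Its summed counts were 1.97%, 2.11% and 2.20% of all gene counts in rhMG53 replicates 1 to 3 and 1.93%, 2.17% and 2.22% in BSA replicates 1 to 3, with 95% Wilson intervals of at most 0.00689 percentage points on either side, which cover counting error only. The means were 2.09 ± 0.116% with rhMG53 and 2.10 ± 0.157% with BSA (SD, n = 3 each). The difference was smaller than the SD of either group, and replicate 1 was the lowest library in both. Libraries of each group differed by more than counting error.

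Among the tested members 0 of 5 passed at an adjusted p under 0.05 in edgeR, against 0.0218% of all tested genes, and 0 of 5 had an unadjusted p under 0.05, against 5.2% of all. Acta2 came under 0.05 before adjustment with the replicate block (unadjusted p = 0.0424, adjusted p = 0.972 in edgeR) and without BSA replicate 1 (unadjusted p = 0.0426, adjusted p = 0.999 in edgeR). In DESeq2 and limma voom 0 of 5 passed as well. None of the 5 had CPM values that did not overlap between the groups, against 10.8% of all tested genes (4.83% lower and 5.94% higher with rhMG53). All 5 log2 fold changes were below 0, with a median of -0.02 beside 0.00142 over all tested genes, but the signs of Acta1, Actc1, Actb and Actg1 turned when single libraries were left out, and that of Acta1 turned also with library size scaling.

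The genes that act on actin were described from 8 lists of 129 genes in all, of which 124 were tested. None of the 124 passed in edgeR in either direction. An unadjusted p under 0.05 was found for 6 of them, 4.84% against 5.2% of all tested genes, and groups did not overlap for 10, which is 8.06% against 10.8% of all. Their log2 fold changes had a median of -0.0074, with 56 above and 68 below 0. Actbl2, Actl6b, Myocd, Cnn1 and Tmsb4x were too low to test. Tmsb4x, which encodes the monomer-binding thymosin beta 4, had 2 to 6 counts per library, and Tmsb10, its relative, was at 3421 CPM over all libraries. How reads with several matches were counted is not given, so the near absence of Tmsb4x counts is not read here as low expression, and its cause was not tested.

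Regulators of actin genes held 1 of 15 tested members at an unadjusted p under 0.05, which is 6.67% beside 5.2% of all tested genes. That member, Phactr4, a phosphatase regulator that binds actin monomers, was at 44.5 ± 4.09 CPM with rhMG53 and 50.7 ± 1.44 CPM with BSA (SD, n = 3 each), with a log2 fold change of -0.19 (edgeR adjusted p = 0.946), and did not pass. Tead1, a factor that binds CATTCC, was next, at 374.4 ± 51.9 CPM with rhMG53 and 403.7 ± 49.97 CPM with BSA (log2 fold change -0.11, edgeR adjusted p = 0.983). The median of the list was -0.03. SRF and MRTF cytoskeletal target genes, 15 tested, had a median of -0.03 and 0 at an unadjusted p under 0.05. Of these the matricellular genes Ccn2 and Ccn1 had the smallest p, with log2 fold changes of 0.24 and -0.11 (edgeR adjusted p = 0.95 and 0.970).

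Genes of filament nucleation held 3 of 25 members at an unadjusted p under 0.05, which is 12% beside 5.2% of all tested genes, and none of the 3 passed after adjustment. Diaph3, a formin that elongates unbranched filaments and also acts in cytokinesis, was at 2.07, 2.07 and 2.03 CPM in the 3 rhMG53 libraries and at 3.36, 3.39 and 3.52 CPM in the 3 BSA libraries. These levels rest on 41, 38 and 35 counts with rhMG53 and 76, 60 and 64 with BSA. All rhMG53 libraries were below all BSA libraries, as for 4.83% of all tested genes. The log2 fold change was -0.73 (SE 0.162, unadjusted p = 8.96e-04, adjusted p = 0.855 in edgeR), which did not pass. Fhod1, another formin gene, was at 17.0 ± 0.586 CPM with rhMG53 and 20.5 ± 2.36 CPM with BSA (-0.27, adjusted p = 0.940). The third, outside the naming rule and named after its values were seen, was the Arp2/3 subunit gene Arpc5, at 20.2 ± 0.393 CPM with rhMG53 and 17.7 ± 0.925 CPM with BSA (0.19, edgeR adjusted p = 0.946). The list, which includes the Arp2/3 complex and the leiomodins, had a median of -0.04.

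Monomer binding and turnover genes, 18 tested, had a median of 0.03. The actin-severing gene Dstn was at 73.9 ± 0.489 CPM with rhMG53 and 66.3 ± 5.12 CPM with BSA (log2 fold change 0.16), and the profilin gene Pfn1 was at 387.9 ± 36.03 CPM with rhMG53 and 348.0 ± 22.9 CPM with BSA (0.16). Neither passed, with edgeR adjusted p at 0.95 and 0.965. Among 13 capping and severing genes, with a median of 0.00079, Capg, which caps filament ends, was at 60.9 ± 4.41 CPM with rhMG53 and 52.1 ± 4.57 CPM with BSA (0.22, adjusted p = 0.940), and Add3 had a log2 fold change of 0.13.

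Crosslinking genes, 14 tested, had a median of 0.02, with the bundling gene Fscn1 at 0.15 and the alpha-actinin gene Actn1 at 0.10 on the log2 scale. Folding and maturation genes, 17 tested, which include the CCT chaperonin that folds actin, lay between -0.06 and 0.07 with a median of -0.0044. Their members with the smallest p were the prefoldin gene Pfdn5 at 0.07 and Setd3, the actin histidine methyltransferase gene, at -0.06. Actin-related proteins, 7 tested, had a median of -0.01, with Actl6a at -0.07 and Actr8 at -0.07. No member of these 3 lists had an unadjusted p under 0.05.

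**Figure D4:**
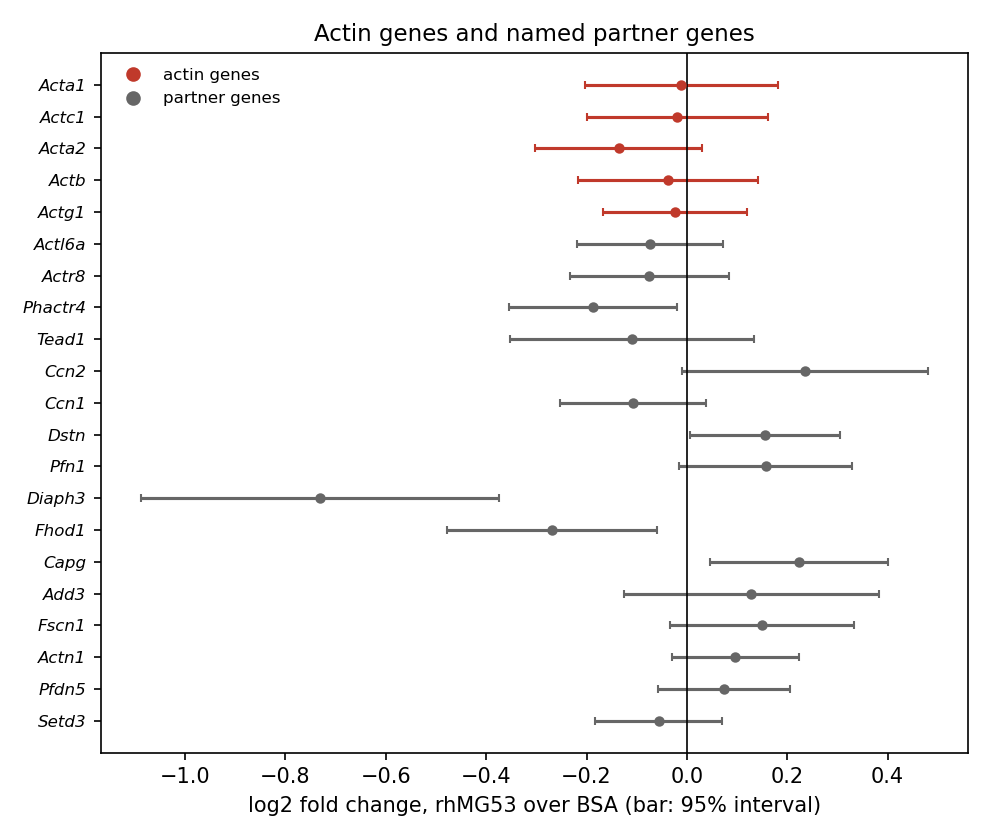
Points are log2 fold changes of rhMG53 over BSA in edgeR with their 95% intervals, for the 5 tested actin genes (red) and the 16 named partner genes (grey). The actin points lie between -0.14 and -0.01 with intervals that include 0, and none of the genes passed at an adjusted p under 0.05.

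Of 8 heart muscle markers 2 were at 1 CPM or more, Myl4 at 4216 CPM, which embryonic skeletal muscle also makes, and Myh6 at 11.7 CPM. The list summed to 4175 to 4711 CPM with rhMG53 and to 3835 to 4251 CPM with BSA. The defining heart genes Nppa, Nkx2-5, Tnni3 and Mybpc3 were under 1 CPM, and Myl7 was at 0 in every library. Endothelial markers summed to 5.14 to 6.73 CPM with rhMG53 and to 6.43 to 6.82 CPM with BSA, led by Vwf at 4.68 CPM and Emcn at 0.698 CPM. Macrophage and other leukocyte markers summed to 1.44 to 6.18 CPM with rhMG53 and to 1.84 to 2.42 CPM with BSA, led by Lyz2 at 1.24 CPM and Cd68 at 0.887 CPM.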

How the data were processed

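RNA was measured in 6 libraries, 3 with rhMG53 and 3 with BSA, made after poly(A) selection with a directional kit, per the labels' protocols. The table the authors deposited holds raw whole-number counts under gene IDs. STAR, featureCounts and edgeR, without versions, and the build mm10 are named per the submitters' processing notes. No source used here gives the annotation, strand setting or read length. Libraries held 17374151 to 22738745 counts, which leaves counting error small for all members but Actg2.

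Symbols came from RefSeq (GRCm38.p6) and GENCODE M21, which named 25292 of 27179 IDs. The 201 list entries all matched. Genes were kept with filterByExpr (minimum count 10, minimum total 15), which left 13769, scaled with TMM factors and compared in edgeR 4.0.16 (R 4.3.3) by the 2-sided quasi-likelihood F test. Adjusted p-values follow Benjamini-Hochberg over the 13769 genes, with calls under 0.05. The SE is the log2 fold change divided by the square root of F. The fit was tested on simulated data. CPM of single genes uses TMM-scaled library sizes, and marker levels use plain totals. Length is that of the longest GENCODE transcript (1333 to 2035 bases for the members).

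Members and lists were chosen with earlier results of these data known. Named partner genes are the called members and the 2 of smallest p of each list. Genes most like a member are the 3 with at least 50 CPM and the smallest root mean square difference of centred log2 CPM (prior count 2). Alternatives were RLE, upper quartile and library size scaling, other filters, DESeq2 1.42.0, limma voom (limma 3.58.1), robust moderation, a replicate block, other lengths and totals, and leaving out each library. Replicates of a group were distinct libraries, their counts differing by more than sampling noise (chi-square over its degrees of freedom 4.88 to 16.6). Protein sequences were not used here.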

Additional observations from a re-analysis of the deposited data

How the results depend on the processing

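No actin and no partner gene passed under any of the 15 alternatives to the fit. Over all genes the 3 calls became 6 with no filter on low counts, 5 in DESeq2 and 0 with the replicate block, and 0 to 4 when single libraries were left out. Acta2 kept a negative log2 fold change throughout (-0.19 to -0.087). Leaving out single libraries gave -0.078 to 0.032 for Acta1, -0.080 to 0.012 for Actc1, -0.11 to 0.025 for Actb, -0.065 to 0.018 for Actg1 and -0.21 to 0.00084 for Tead1, and library size scaling gave 0.0036 for Acta1. No scaling moved the median of all genes by more than 0.016.

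Leaving out single libraries moved the difference in share to between -0.45 and -0.29 percentage points for Acta2, 0.070 and 0.62 for Acta1 (0.070 without BSA replicate 1), 0.16 and 0.65 for Acta1 and Actc1 together (0.16 without rhMG53 replicate 3 and 0.18 without BSA replicate 1), -0.24 and 0.39 for Actc1, -0.18 and 0.083 for Actb, -0.061 and 0.071 for Actg1, -5.2e-04 and 7.7e-05 for Actg2, and -0.013 and 0.022 for the log2 ratio of Acta1 to Actc1. The difference in the family's share of all counts lay between -0.100 and 0.052 percentage points, so its sign turned. For Actc1 the share difference was -0.0075 with transcript length, 0.039 with counts not divided by length and 0.039 with coding length. These 3 values rest on the same counts and differ only in the length divisor. The cause of the differences between groups was not tested. The Acta2 share difference was -0.47 with counts not divided by length, and -0.34 with lengths counted in unshared windows, which were added after the data were seen.

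The replicate numbers state no shared animal, culture or day, and deviations of same-numbered libraries correlated at 0.19, -0.13 and -0.15, so the numbers were not taken as pairs. The highest correlation between the groups was 0.30, for rhMG53 replicate 2 with BSA replicate 3. With the replicate block in edgeR Acta2 stood at -0.14 (adjusted p = 0.972). Within replicate numbers the Acta2 share differed by -0.35 percentage points (exact sign-flip p = 0.25, the smallest that 3 pairs can give).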
